A study of Mus musculus with 3 samples.

Results

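Genes of the cilium-based flow sensor were followed through single-cell transcriptomes of the early mouse embryo: the polycystin genes Pkd1l1, Pkd2 and Pkd1, the RNA-binding protein gene Bicc1, and the inversin module genes Invs, Anks6 and Nek8. All 7 were found by symbol among the 31054 features of the deposited table. The dataset consisted of 3 embryos at embryonic day 8, between the headfold stage and the first somites, from C57BL/6 and 129 SvEv crosses, labelled wild type and left untreated. Per the methods, extraembryonic tissue was removed, and each embryo was dissociated and loaded on its own for droplet-based 3' sequencing, so that the embryo is the replicate (n = 3). The genes were read out in left-right organizer (LRO) cells, which were defined as cells with a transcript of at least 4 of the 6 markers Foxj1, Noto, Pifo, Fam183b, Cfap126 and 1110017D15Rik. This definition gave 264 LRO cells (77, 79 and 108 in embryos 1, 2 and 3) among the 22168 cells that passed quality control, and none of the 7 genes was part of it.

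The LRO of the mouse, also called the node, is a shallow pit of ciliated cells on the ventral midline. Motile cilia in its centre drive a leftward fluid flow. The surrounding crown cells carry non-beating cilia, which are widely held to be the flow sensors. The polycystins PKD1L1 and PKD2 form a ciliary membrane complex that is required for this response, PKD2 being a cation channel and PKD1L1 a large receptor-like partner, whereas PKD1 is the partner of PKD2 in kidney tubule cilia. BICC1 binds messenger RNAs, among them that of the NODAL antagonist DAND5, and recruits the CCR4-NOT deadenylase to them. Inversin (INVS) anchors a compartment at the base of the cilium in which the ankyrin repeat protein ANKS6 and the kinase NEK8 lie, and mutations in all 3 disturb left-right patterning.

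Levels are given as unique molecular identifiers (UMIs) of a gene in the summed cells of a class in one embryo, scaled to a total of 1000000 (CPM). Because 3' tags also depend on how well the end of a transcript is captured, levels were compared for one gene between classes and not between genes. The cells that passed quality control had median totals of 26705, 14461 and 16242 UMIs in embryos 1, 2 and 3, and the LRO cells had medians of 29798, 17922 and 28132. The libraries shared 14 to 20 cell barcodes in each pair. Of genes outside the definition, the motile cilium gene Tekt1 had a mean of 130 CPM in LRO cells and the node and notochord gene T of 598 CPM. The 6 LRO markers summed to 878 to 1526 CPM in LRO cells and to at most 20.2 CPM in definitive endoderm, the highest of the other classes described here. The definition chose LRO cells by these markers and kept such cells out of the other classes, so it sets this gap.

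Some properties of the cells touch every result. EGFP transcripts, which a wild-type embryo does not carry, were counted in embryo 1 (31 UMIs) and embryo 3 (32 UMIs) and not in embryo 2 (0 UMIs), and 18 of the 77 and 19 of the 108 LRO cells of embryos 1 and 3 held one. Results are therefore also given without each embryo, and the part of this difference in them was not tested. Extraembryonic endoderm cells were still present, 239, 1116 and 878 in embryos 1, 2 and 3, and erythroid cells numbered 2, 815 and 290. The make-up of the cells outside the LRO thus differed between embryos. Moreover, 167 of the 264 LRO cells (48, 45 and 74) also met the marker list of a lineage other than axial mesoderm, most often that of neuromesodermal progenitors (82 cells) and paraxial mesoderm (68 cells). The neuromesodermal list is T, Sox2 and Nkx1-2, and T is itself a gene of the node. The 167 cells had a median of 37088 UMIs, compared with 10353 UMIs in the 97 cells that met no other list. The 326 cells that met the axial mesoderm list (at least 3 of T, Shh, Foxa2, Nog and Chrd, with at most 1 LRO marker) went against that name in part. Their axial markers summed to 342 to 556 CPM, below those of LRO cells (764 to 1172 CPM), their definitive endoderm markers summed to 619 to 886 CPM, and 185 of them met the definitive endoderm list too. They are therefore called axial-list cells, and Bicc1 and Pkd1l1 are also given for the 68 that met no other list, in which T was at 704 ± 43.9 CPM and Shh at 497 ± 198 CPM (SD, n = 3). T and Shh are among the markers that chose these cells, so nothing about their identity is read from these levels.

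Pkd1l1 (ENSMUSG00000046634; GRCm38 chromosome 11, 8826708 to 8973266, minus strand) was the member most restricted to the LRO and its closest neighbours. In LRO cells it gave 31, 14 and 21 UMIs, or 11.5, 7.91 and 6.19 CPM in embryos 1, 2 and 3 (8.55 ± 2.73, SD, n = 3). In axial-list cells it was at 2.94, 6.56 and 0.995 CPM (3.50 ± 2.83, n = 3), and in definitive endoderm at 2.72, 2.39 and 1.42 CPM (2.18 ± 0.680, n = 3). Within each embryo the LRO value was the highest of these 3 classes, although the ranges of LRO and axial-list cells overlapped because axial-list cells of embryo 2 lay above LRO cells of embryo 3. The ranges of LRO and definitive endoderm cells did not overlap.

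In the classes outside these 3 Pkd1l1 was close to absent, with means of at most 0.221 CPM (surface ectoderm). It had 0 UMIs in extraembryonic endoderm, cardiac mesoderm, presomitic mesoderm, neuromesodermal progenitors, endothelium, erythroid cells, allantois and primordial germ cells. In the 2233 extraembryonic endoderm cells a count of 0 allows up to 0.134% of cells with a UMI, and with 3 UMIs over all those cells as the floor, the pooled level in LRO cells (8.41 CPM) was at least 112-fold higher. For the 54 primordial germ cells the same floor allowed only a bound of at least 2.24-fold, so absence could not be told from shallow sampling there. Of the 188 Pkd1l1 UMIs in all cells, 66 (35.1%) came from LRO cells, which made up 1.19% of the cells, 39 from axial-list cells and 34 from definitive endoderm. A further 29 (15.4%) came from cells that met more than 1 other lineage list and were put in no class. Cells of no list and paraxial mesoderm gave 7 each, and anterior neural plate, surface ectoderm and extraembryonic mesenchyme 2 each.

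A Pkd1l1 transcript was seen in 25 of 77, 13 of 79 and 18 of 108 LRO cells, or 32.5% (95% Clopper-Pearson interval 22.2 to 44.1), 16.5% (9.06 to 26.5) and 16.7% (10.2 to 25.1). These intervals cover counting error only. In erythroid cells, taken as a class that should lack the gene and with a median depth of 15110 UMIs against 25915 UMIs in LRO cells, the share was 0 of 1107, which allows up to 0.271%. After every cell was thinned to 5000 UMIs, leaving out 12 shallower LRO cells and 2 erythroid cells, 16 of 252 LRO cells (6.35%) still had a transcript and 0 of 1105 erythroid cells did.

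Pkd2 (ENSMUSG00000034462; chromosome 5, 104459450 to 104505819, plus strand) showed a different, broad distribution. It was counted in every class, and its LRO level of 17.1, 15.3 and 18.3 CPM (16.9 ± 1.53, n = 3) stood next to that of definitive endoderm (18.9, 18.3 and 18.4 CPM, 18.6 ± 0.325) and axial-list cells (19.9, 18.0 and 10.9 CPM, 16.3 ± 4.72). Definitive endoderm had the highest mean, and its lowest embryo lay just above the highest LRO embryo. From LRO cells down to cardiac mesoderm (9.01 ± 2.33 CPM) every neighbouring pair in the order overlapped between embryos. Extraembryonic endoderm (5.68 ± 0.653 CPM) and erythroid cells (2.58 ± 0.776 CPM, n = 2) were set apart below it.

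Among LRO cells 35 of 77, 23 of 79 and 44 of 108 had a Pkd2 transcript (45.5%, 29.1% and 40.7%), whereas 48 of 1107 erythroid cells had one (4.34%). The thinned shares were 22 of 252 (8.73%) and 14 of 1105 (1.27%). In cells with 0 LRO markers, of any class, the thinned share of Pkd2 was 6.77%, 5.22% and 5.21% in embryos 1, 2 and 3. The channel partners were therefore seen together in only some cells: 24 of the 264 LRO cells (11, 4 and 9) held transcripts of both Pkd1l1 and Pkd2, and 130 held neither. At 66 and 135 UMIs over all LRO cells, most cells with a transcript had 1 or few, and a missing transcript does not show that a cell lacked the RNA.

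Pkd1 (ENSMUSG00000032855; chromosome 17, 24549834 to 24596508, plus strand) was not raised in the LRO. LRO cells had 7.45, 2.82 and 5.90 CPM (5.39 ± 2.35, n = 3) from 20, 5 and 20 UMIs, the eighth highest of the 15 classes. The highest levels were in allantois (11.8 ± 0.709 CPM) and extraembryonic mesenchyme (11.3 ± 2.46 CPM), which overlapped each other and lay above every LRO embryo, and the lowest was in extraembryonic endoderm (2.03 ± 0.556 CPM). Exons of Pkd1 overlap those of Tsc2 on the other strand, and the sources used here do not state how strand was handled in counting.

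**Figure D1:**
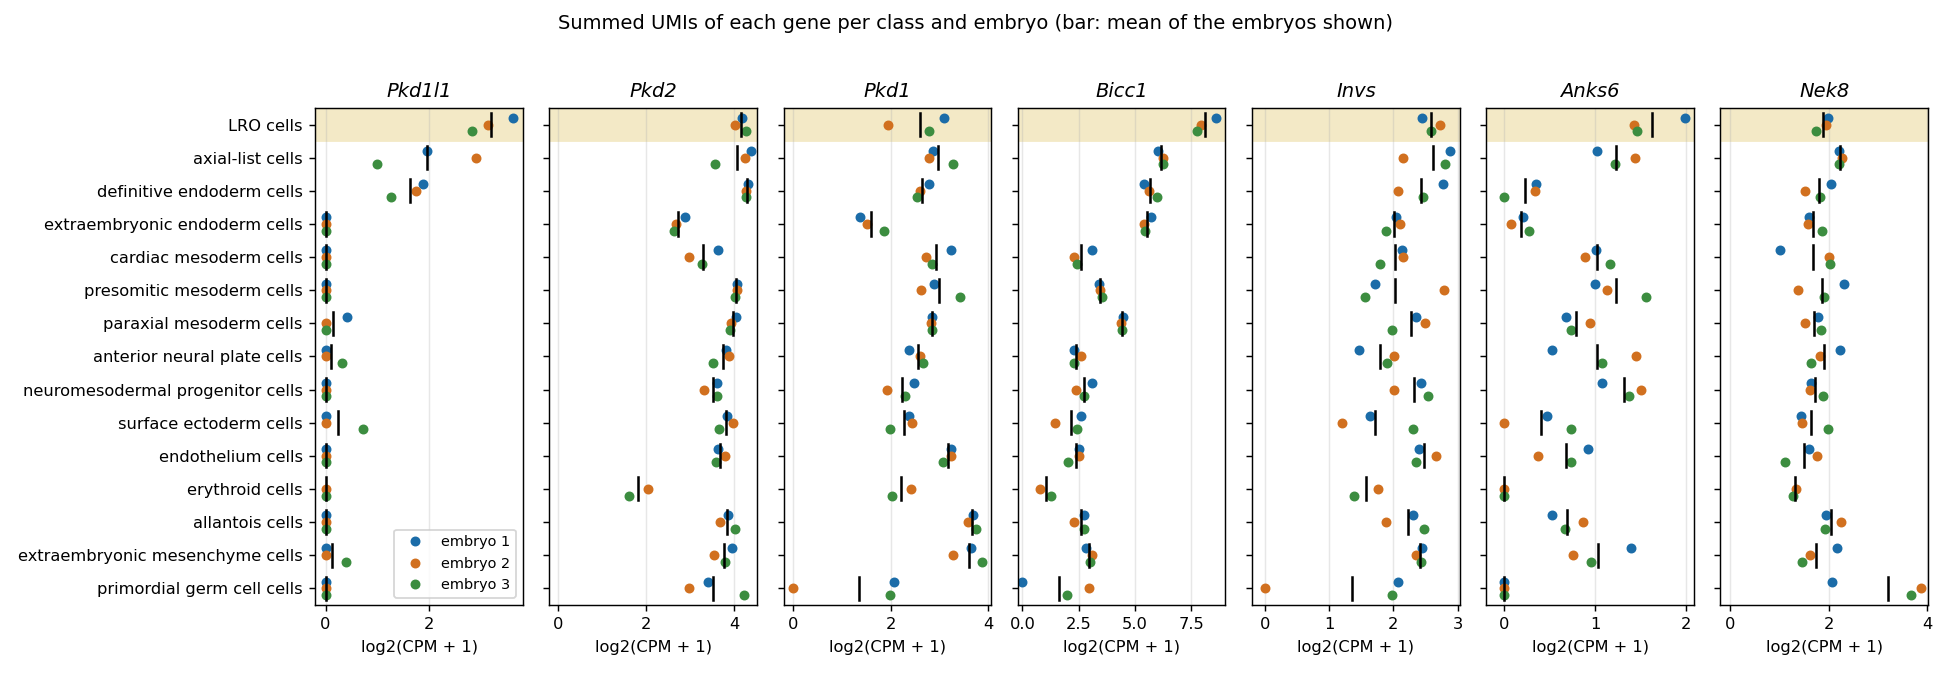
Level of each gene as log2(CPM + 1) of summed UMIs (x axis, scaled per gene) in LRO cells and 14 other classes (y axis), one point per embryo and a bar at the mean of the embryos. Bicc1 and Pkd1l1 have their highest means in LRO cells, followed by axial-list and definitive endoderm cells, whereas Pkd2, Pkd1, Invs and Nek8 are spread over most classes; erythroid cells of embryo 1 (2 cells) are left out.

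Bicc1 (ENSMUSG00000014329; chromosome 10, 70922832 to 71159700, minus strand) was counted well enough to be compared cell by cell, with 1033, 429 and 733 UMIs in LRO cells. Its level was 385, 242 and 216 CPM in embryos 1, 2 and 3 (281 ± 90.8, n = 3). Axial-list cells had 63.6, 73.9 and 74.3 CPM (70.6 ± 6.09), definitive endoderm 41.8, 48.6 and 61.7 CPM (50.7 ± 10.1) and extraembryonic endoderm 51.2, 41.3 and 43.2 CPM (45.2 ± 5.29). The lowest LRO embryo was thus above the highest embryo of every other class, by a wide margin, and the 2 endoderm classes overlapped each other.

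Below the endoderm, Bicc1 fell in steps that did not overlap, to paraxial mesoderm (20.6 ± 0.602 CPM), presomitic mesoderm (10.0 ± 0.441 CPM) and extraembryonic mesenchyme (6.92 ± 0.729 CPM). From extraembryonic mesenchyme to erythroid cells (1.07 ± 0.495 CPM, n = 2) neighbours overlapped. Of all 10073 Bicc1 UMIs, 21.8% came from LRO cells. A transcript was present in 75 of 77, 76 of 79 and 103 of 108 LRO cells (97.4%, 96.2% and 95.4%) and in 16 of 1107 erythroid cells (1.45%). After thinning, the shares were 165 of 252 LRO cells (65.5%) and 4 of 1105 erythroid cells (0.362%), the class with the lowest mean level. In cells with 0 LRO markers, of any class, the thinned share of Bicc1 was 6.41%, 6.79% and 6.45% in embryos 1, 2 and 3. All 56 LRO cells with a Pkd1l1 transcript and 131 of the 132 with a Dand5 transcript also had one of Bicc1. The antisense gene 4930533K18Rik, whose exons overlap those of Bicc1, had 2 UMIs in LRO cells and 5 in all other cells.

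The inversin module genes were counted sparsely. Invs (ENSMUSG00000028344; chromosome 4, 48279760 to 48431954, plus strand; its exons overlap those of Tex10 on the other strand) was at 4.47, 5.65 and 5.01 CPM in LRO cells (5.04 ± 0.590, n = 3) from 12, 10 and 17 UMIs. Axial-list cells were slightly higher in their mean (5.28 ± 1.59 CPM), and neighbours in the order overlapped throughout, down to erythroid cells (2.02 ± 0.553 CPM, n = 2). Anks6 (ENSMUSG00000066191; chromosome 4, 47015669 to 47057427, minus strand) gave only 8, 3 and 6 UMIs, or 2.98, 1.69 and 1.77 CPM (2.15 ± 0.721, n = 3), which was nonetheless the highest mean of the 15 classes.

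Anks6 in the next class, neuromesodermal progenitors (1.52 ± 0.373 CPM), overlapped the LRO range. Definitive endoderm (0.179 ± 0.155 CPM) and extraembryonic endoderm (0.138 ± 0.0768 CPM) were below every LRO embryo, and erythroid and primordial germ cells had 0 UMIs. Nek8 (ENSMUSG00000017405; chromosome 11, 78166106 to 78176675, minus strand) was flat: LRO cells had 2.98, 2.82 and 2.36 CPM (2.72 ± 0.323, n = 3), and apart from primordial germ cells (9.55 ± 5.58 CPM in 12, 13 and 29 cells) the class means ran from 1.47 to 3.70 CPM. Over the 264 LRO cells a transcript was seen in 36 for Invs, 17 for Anks6 and 20 for Nek8, and 3 cells held Invs with Nek8. The thinned shares of Invs, Anks6 and Nek8 were 5.56%, 3.57% and 2.38% in LRO cells and 1.36%, 0% and 0.814% in erythroid cells. Erythroid cells had the lowest mean level of Invs and Nek8. In cells with 0 LRO markers the thinned shares were 1.82%, 1.77% and 1.86% for Invs in embryos 1, 2 and 3. For Anks6 they were 0.356%, 0.298% and 0.374%, and for Nek8 1.24%, 1.04% and 1.12%.

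To ask which members differed between LRO cells and the rest of the embryo, the UMIs of LRO cells and of all other cells were summed in each embryo and tested with edgeR's quasi-likelihood method over all genes, with Benjamini-Hochberg adjustment. In all other cells Bicc1 was at 15.6, 16.1 and 15.7 CPM and Pkd1l1 at 0.311, 0.250 and 0.160 CPM, far below every LRO embryo. Of the 7 members, 3 were higher in LRO cells and 0 lower, where 11.2% of the 15814 genes tested were higher and 6.54% lower. Bicc1 was higher by a log2 fold change of 4.06 (SE 0.193, edgeR adjusted p = 2.85e-07) and Pkd1l1 by 5.05 (SE 0.388, edgeR adjusted p = 8.87e-06). Both stayed past the threshold without each embryo, at 3.78 to 4.20 for Bicc1 and 5.01 to 5.13 for Pkd1l1.

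Anks6 was the third, with a log2 fold change of 1.47 (SE 0.380, edgeR adjusted p = 0.0248) and all other cells at 0.768, 0.667 and 0.781 CPM. This call did not hold without embryo 1, 2 or 3 (log2 fold changes of 1.21, 1.52 and 1.64, edgeR adjusted p = 0.181, 0.117 and 0.106), nor in LRO cells that met no other lineage list (1.94, edgeR adjusted p = 0.0900). Pkd2, at 14.1, 10.3 and 11.6 CPM in all other cells, was below the LRO in each embryo by a small margin. Its log2 fold change was 0.43 (SE 0.169, edgeR adjusted p = 0.113), and 0.42 with the embryo as a block, since both sums come from one animal (edgeR adjusted p = 0.0389). Invs (0.33), Nek8 (-0.01) and Pkd1 (-0.15) did not pass the test (edgeR adjusted p = 0.369, 0.987 and 0.757). The median log2 fold change was 0.43 over the 7 members and -0.05 over all genes tested.

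Axial mesoderm, the notochord-forming tissue next to the LRO that shares T, Shh and Foxa2 with it, is the closest lineage, and the axial-list cells were compared in its place. Here 8.81% of the 10753 genes tested were higher in LRO cells and 5.15% lower, and of the 6 members tested 1 was called. This was Bicc1, with a log2 fold change of 1.98 (SE 0.181, edgeR adjusted p = 3.48e-06) and 1.60 to 2.19 without each embryo. Pkd1l1 had a log2 fold change of 1.30 (SE 0.461, edgeR adjusted p = 0.0838), and 1.44 with the embryo as a block, where it passed (edgeR adjusted p = 0.00424). Of the axial-list sums only that of embryo 2 reached the count filter, so Pkd1l1 entered the test through LRO cells. Its pass is therefore no independent support for a difference. Pkd1l1 was higher in LRO cells in 3 of 3 embryos, but its size depended on the embryos: it was 0.86, 1.99 and 1.17 without embryo 1, 2 and 3 (edgeR adjusted p = 0.541, 0.0699 and 0.117). In the fit with only LRO cells that met no other list it was 2.86 (edgeR adjusted p = 3.25e-04). That fit limited the LRO side alone: 258 of the 326 axial-list cells met another list and stayed in. The 2 sides were thus chosen unequally, and this value cannot be read as a difference between like cells. Axial-list cells held at most 1 LRO marker by definition, and no other limit on their LRO markers was run.

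Neither Pkd2 (0.04), Invs (-0.13), Nek8 (-0.46) nor Pkd1 (-0.29) passed in the axial-list comparison. Anks6 was below the count filter, and did not pass without it (0.68, edgeR adjusted p = 0.626) or with DESeq2 (0.67, DESeq2 adjusted p = 0.878). With axial-list cells limited to those with at least 4 of the 5 markers, Bicc1 still passed (1.39, edgeR adjusted p = 0.00445) and Pkd1l1 had 0.33 (edgeR adjusted p = 0.747).

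When cells that met another list were left out of both classes, 97 LRO cells were compared with 68 axial-list cells. Bicc1 was at 941, 553 and 569 CPM in these LRO cells and at 36.5, 115 and 123 CPM in these axial-list cells, with no overlap and a log2 fold change of 2.85 (edgeR adjusted p = 2.48e-06). Pkd1l1 was at 35.7, 25.9 and 15.5 CPM and at 16.2, 16.7 and 3.74 CPM, from 32 and 12 UMIs, and was below the count filter. The LRO value was the higher in each embryo, but the ranges overlapped, so a difference in Pkd1l1 between these cells could not be tested at this depth.

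Against definitive endoderm, the gut-forming layer around the LRO, 16.0% of 11016 genes were higher in LRO cells and 13.1% lower. Of the 5 members tested 2 were called, both higher in the LRO: Bicc1 with 2.47 (SE 0.190, edgeR adjusted p = 1.78e-07) and Pkd1l1 with 1.87 (SE 0.352, edgeR adjusted p = 8.62e-04). Pkd1l1 kept its call without each embryo (1.83 to 1.95). However, Pkd1l1 lay below the count filter in every definitive endoderm sum and passed it through LRO cells alone. Its call is therefore no independent support for a difference, and its values per embryo are given above as description. Pkd2 (-0.13), Invs (0.09) and Pkd1 (0.08) did not pass. Anks6 and Nek8 were below the count filter. Without the filter Anks6 had a log2 fold change of 3.17 (edgeR adjusted p = 0.00158), resting on 3 UMIs in definitive endoderm against 17 in LRO cells, and DESeq2 called it as well (3.42).

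Extraembryonic endoderm was the most distant class tested, and 35.3% of 11689 genes were higher in LRO cells and 34.8% lower. Pkd1l1 had 0 UMIs in this class, passed the count filter through LRO cells alone and is given only as the bound above. Of the other 5 members tested, 3 were higher in the LRO and 0 lower, against that high background. These were Bicc1 (2.42, edgeR adjusted p = 9.64e-08), Pkd2 (1.39, SE 0.189, edgeR adjusted p = 3.01e-05) and Pkd1 (1.21, SE 0.352, edgeR adjusted p = 0.00867). Per embryo, Pkd2 was at 6.43, 5.39 and 5.22 CPM and Pkd1 at 1.57, 1.87 and 2.64 CPM in extraembryonic endoderm. Both ranges lay below the LRO range, for Pkd1 by a narrow gap, and without embryo 1 the Pkd1 call was lost (0.84, edgeR adjusted p = 0.0919). Of the Pkd1 sums in extraembryonic endoderm only that of embryo 3 reached the count filter. Pkd1 thus entered the test through LRO cells, and its call is no independent support. Invs (0.48) and Nek8 (0.04) did not pass. Anks6, with 5 UMIs in extraembryonic endoderm, was below the count filter and was called higher without it (3.63) and with DESeq2 (3.78).

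**Figure D2:**
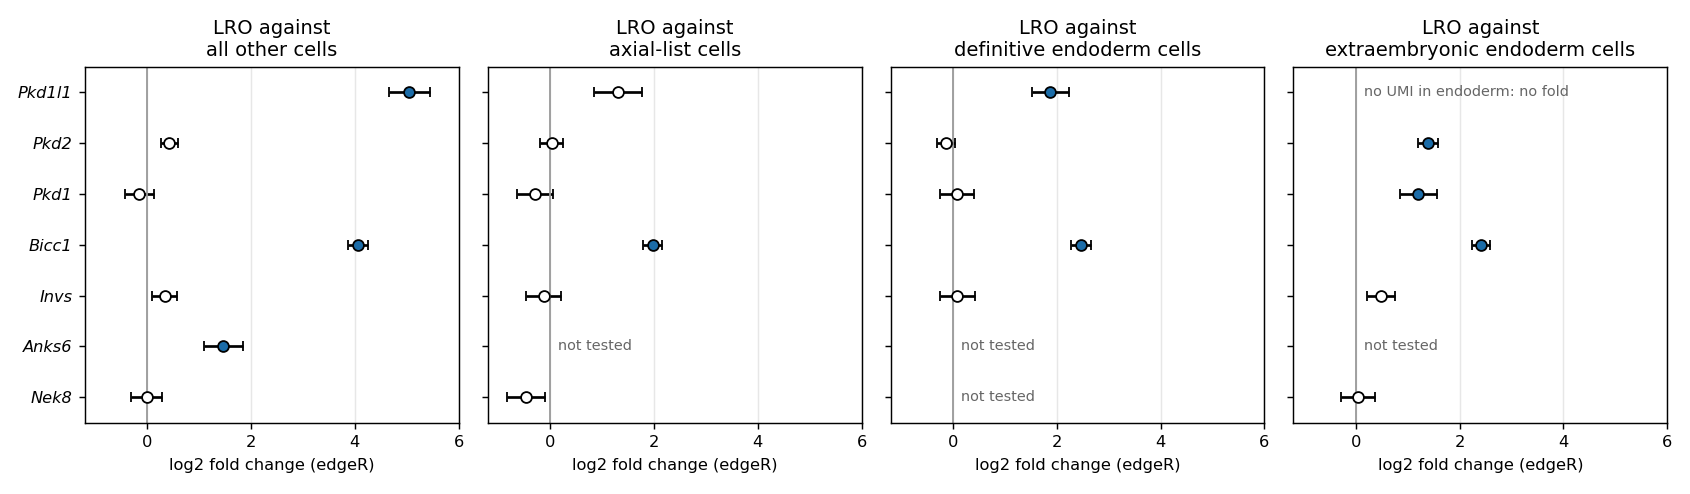
Log2 fold change with its standard error (x axis) of each gene (y axis) between LRO cells and 4 sets of cells, from edgeR on UMI sums of 3 embryos. Filled points passed an adjusted p of 0.05: Bicc1 in all 4 panels, Pkd1l1 against all other cells (5.05) and definitive endoderm (1.87), Anks6 against all other cells, Pkd2 and Pkd1 against extraembryonic endoderm. Pkd1l1 against axial-list cells and definitive endoderm, and Pkd1 against extraembryonic endoderm, passed the count filter through LRO cells.

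LRO cells that met a second lineage list and those that did not differed in what they contained. Total UMIs per cell were 3.12 times as many in cells with a second list (2.80 to 3.57 over the 3 embryos), and the mitosis genes Mki67 and Top2a were 7.41 and 6.51 times as many. A second list is met more readily by a deeper cell, so the split itself sets part of the ratio of the totals. UMIs per cell of Bicc1 and Pkd1l1 were 0.927 (0.789 to 1.14) and 0.661 (0.498 to 0.919) times as many. The 6 LRO markers had means of 0.712 to 0.851, but every LRO cell, shallow or deep, had to show at least 4 of them, so nothing is read from their ratios. Nek8 (3.49, 3.02 to 4.23) and Pkd2 (2.75, 1.79 to 4.29) had ratios near that of the total, and Invs lay between (1.28, 1.13 to 1.49). Anks6 ranged from 0.378 to 4.23 and Pkd1 had 0 UMIs in 34 cells of embryo 2, so neither can be placed.

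As shares of the summed UMIs, Bicc1 was therefore at 688 ± 220 CPM in LRO cells without a second list and 201 ± 55.7 CPM in those with one (n = 3). Pkd1l1 was at 25.7 ± 10.1 and 5.07 ± 1.15 CPM and Invs at 10.1 ± 2.49 and 4.05 ± 0.403 CPM. Pkd2 was at 20.1 ± 6.35 and 16.1 ± 3.02 CPM and Nek8 at 2.52 ± 0.624 and 2.76 ± 0.395 CPM, within the spread of the embryos. With only LRO cells that met no other list, the log2 fold changes against all other cells were 5.24 for Bicc1 and 6.53 for Pkd1l1. Whether the second list marks droplets with more than 1 cell or larger cells was not tested.

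**Figure D3:**
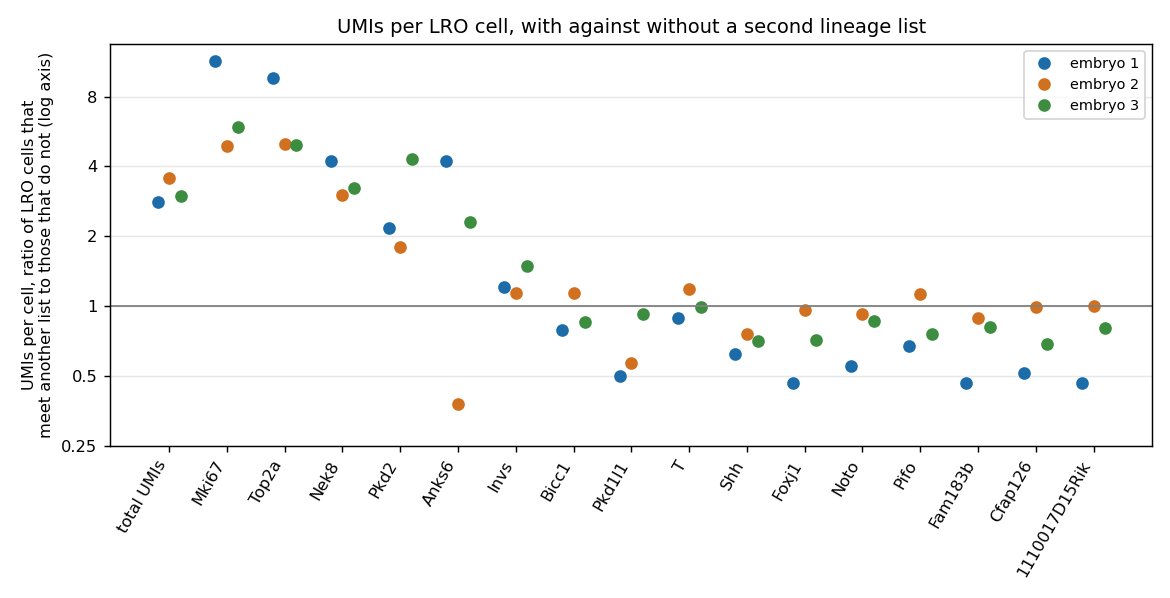
Ratio of UMIs per cell in LRO cells that also met another lineage list to those that did not (y axis, log scale), for total UMIs, mitosis genes, the members, T, Shh and the 6 LRO markers (x axis), one point per embryo. Total UMIs, Mki67 and Top2a lie well above 1 and Nek8 and Pkd2 lie above 1 in every embryo, whereas Bicc1 and Pkd1l1 lie around or below 1; the LRO markers chose the cells, and Pkd1 is not drawn.

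Bicc1 and Pkd1l1 were also higher in cells with more LRO markers. Mean Bicc1 over the embryos was 14.7, 19.9, 57.1, 109, 123, 252 and 349 CPM in cells with 0 to 6 of the markers. Just outside the limit, at 3 markers, it was 123, 89.5 and 115 CPM in embryos 1, 2 and 3, and just inside, at 4 markers, 90.2, 131 and 149 CPM. Pkd1l1 means were 0.167, 0.591, 2.29, 4.99, 5.11, 6.26 and 11.1 CPM. At 3 markers these rested on 5, 1 and 2 UMIs in embryos 1, 2 and 3, and at 4 markers on 2, 3 and 1 UMIs. A step of Pkd1l1 at the limit could therefore not be judged. Mean Pkd2 lay between 11.9 and 18.5 CPM. Each of the groups with 3 or 4 markers held between 10 and 22 cells per embryo.

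**Figure D4:**
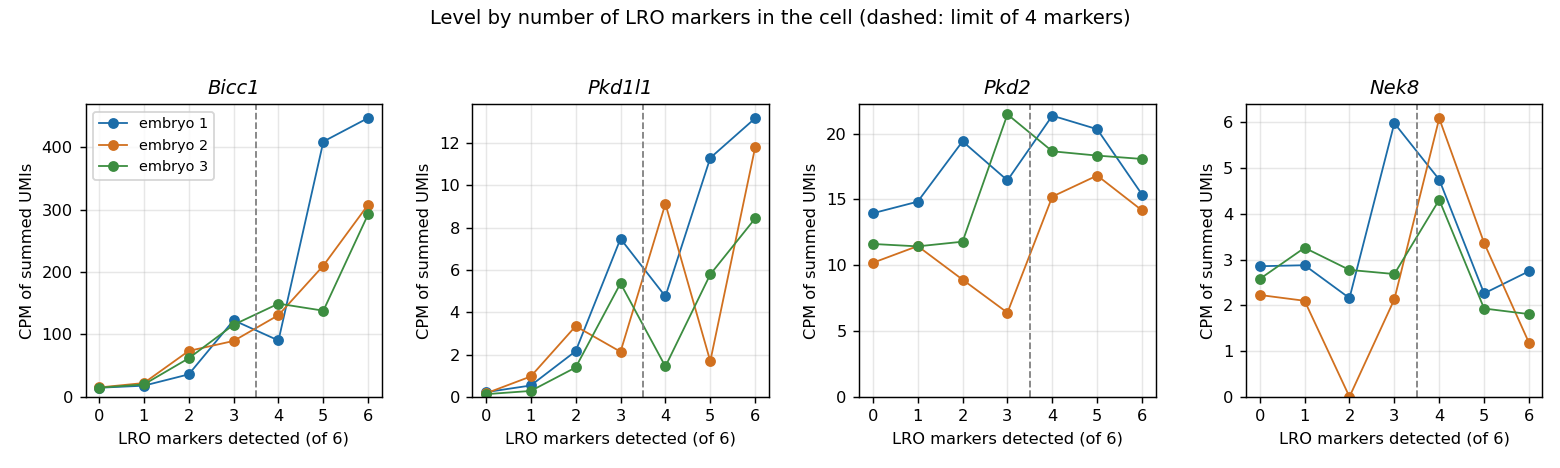
CPM of summed UMIs (y axis) of Bicc1, Pkd1l1, Pkd2 and Nek8 by the number of the 6 LRO markers detected in a cell (x axis), one line per embryo; the dashed line marks the limit of 4 markers. Mean Bicc1 increases from 14.7 CPM at 0 markers to 349 CPM at 6, with values of 109 and 123 CPM on the 2 sides of the limit.

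Partner genes of the members, from fixed lists, differed in the same comparisons to unequal extents. Of the inversin partners, Nphp4, which encodes a protein at the ciliary base, was at 5.22 ± 1.35 CPM in LRO cells (SD, n = 3) and at 1.15 ± 0.287 CPM in all other cells. It was higher in LRO cells in all 4 comparisons, with log2 fold changes of 2.06 against all other cells (edgeR adjusted p = 0.00184), 1.54 against axial-list cells (edgeR adjusted p = 0.0167), 1.57 against definitive endoderm (edgeR adjusted p = 0.0302) and 4.31 against extraembryonic endoderm (edgeR adjusted p = 1.95e-06). Against axial-list cells, definitive endoderm and extraembryonic endoderm, Nphp4 passed the count filter because of its level in LRO cells. Those calls are therefore no independent support. The Nphp4 calls against axial-list cells and definitive endoderm rested on 39 UMIs in LRO cells and were lost with DESeq2 and, respectively, without embryo 1 or 2 and without embryo 2 or 3, the latter also at a limit of 3 LRO markers. Anks3, which links ANKS6 to BICC1, was lower than in extraembryonic endoderm (-0.57) and had 0.50, 0.41 and 0.31 against all other cells, axial-list cells and definitive endoderm (edgeR adjusted p = 0.0560, 0.297 and 0.306). With LRO cells that met no other list it was higher in these 3 comparisons (1.06, 1.04 and 0.95, edgeR adjusted p = 0.0160, 0.0333 and 0.0379) and changed sign against extraembryonic endoderm (0.08, edgeR adjusted p = 0.831). These fits limited the LRO side alone, and other cells and axial-list cells that met several lists stayed in. Values from such fits against all other or axial-list cells, here and elsewhere, cannot be read as differences between like cells. DESeq2 also called Anks3 against all other cells.

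The inositol trisphosphate receptors release calcium from the endoplasmic reticulum. Itpr2 was higher in LRO cells in the 4 comparisons (3.17 against all other cells, 1.98 against axial-list cells, 3.28 against definitive endoderm and 3.90 against extraembryonic endoderm). Itpr1 passed against axial-list cells (0.88, lost without embryo 2), definitive endoderm (1.62) and extraembryonic endoderm (2.16), and had 0.41 against all other cells (edgeR adjusted p = 0.0787). With LRO cells that met no other list, Itpr1 passed against all other cells too (0.96, edgeR adjusted p = 0.00589). Itpr3 was lower than in extraembryonic endoderm (-2.49) and did not pass in the other 3. So 1 of 3 receptors was higher against all other cells with edgeR on all LRO cells, where 11.2% of all genes were higher. DESeq2 called 2 of 3, where 2321 of 17888 genes were higher. In the other comparisons 2 of 3 were higher, beside 8.81%, 16.0% and 35.3% of all genes against axial-list cells, definitive endoderm and extraembryonic endoderm.

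Of the 4 flow target and crown genes, Dand5, Nodal and the NODAL co-receptor gene Cfc1 were higher in LRO cells in all 4 comparisons, under every alternative. Of all genes, 11.2%, 8.81%, 16.0% and 35.3% were higher against all other cells, axial-list cells, definitive endoderm and extraembryonic endoderm. Against all other cells the log2 fold changes were 6.30, 7.95 and 1.89, and against axial-list cells 5.39, 4.68 and 1.64. At least against extraembryonic endoderm, Nodal passed the count filter through LRO cells alone, so that call is no independent support. Gdf1, the fourth, had 0 UMIs in all 22168 cells and could not be tested. Whether its RNA was absent or was not assigned to it in counting cannot be told from these counts. The 11 genes of the CCR4-NOT deadenylase, the complex that BICC1 recruits, gave 0 calls with edgeR against all other cells, axial-list cells or definitive endoderm, with median log2 fold changes of -0.06, 0.01 and 0.10. Against extraembryonic endoderm 4 were higher (Cnot2, Cnot3, Cnot8 and Cnot11, 0.42 to 0.86) and 2 lower (Cnot1 and Cnot6l, -0.24 and -0.57), where 35.3% and 34.8% of all genes were, so that the share of higher genes was that of the background. DESeq2 also gave 0 in the first 3 comparisons, and at an unadjusted edgeR p under 0.05 there were 0, 1 (Cnot8) and 1 (Cnot1). With LRO cells that met no other list, however, edgeR called Cnot8 higher in these 3 comparisons (0.55, 0.73 and 0.63). Cnot9 was then called lower against all other cells and axial-list cells (-1.04 and -0.99), and Cnot1 against definitive endoderm (-0.56). Of the calls against extraembryonic endoderm, only that of Cnot11 held under every alternative. Of the 7 other polycystin and fibrocystin genes, only Pkd1l2 could be tested, against all other cells (0.74, not called), and in LRO cells Pkd1l2 and Pkd2l2 had 2 UMIs each, Pkhd1 1 and the rest 0.

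Crown cells were then set apart within the LRO. Cells with at least 2 UMIs of Dand5 and Nodal together were taken as crown-marked (46, 26 and 41) and cells with 0 UMIs of both as crown-negative (21, 39 and 53), so Dand5 and Nodal themselves are no result here. Cfc1, the remaining testable gene of the flow target and crown list, leaned the other way. Its log2 fold change in crown-marked cells was -0.42 (edgeR unadjusted p = 0.0192, adjusted p = 0.9999), and it was negative in all 13 alternatives (-0.66 to -0.09). Crown-marked cells were deeper, with median totals of 35627, 20971 and 30024 UMIs against 25157, 14168 and 25965, and the part of depth in the split was not tested. Bicc1 was at 428, 301 and 287 CPM in crown-marked cells and 284, 240 and 174 CPM in crown-negative cells. It was higher in the crown-marked cells of each embryo, while the 2 ranges met at 284 to 287 CPM without overlapping.

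The log2 fold change of Bicc1 was 0.52 (SE 0.177, edgeR adjusted p = 0.965). With the embryo as a block it was again 0.52 and passed (edgeR adjusted p = 2.08e-04). It also passed in cells thinned to 5000 UMIs (1.06, edgeR adjusted p = 0.00330). There the crown-marked and crown-negative cells were set anew from the thinned counts, so they are not the same sets. It did not pass in cells that met no other list (0.61, edgeR adjusted p = 0.441). Of 8313 genes tested, 18 were called (0.217%), and of the 3 members tested edgeR called 0, DESeq2 called 0, and 1 was at an unadjusted p under 0.05. Pkd1l1 was at 10.7, 4.68 and 9.67 CPM in crown-marked and 11.9, 11.2 and 4.36 CPM in crown-negative cells, with overlap and no common direction (0.10). Pkd2 was at 15.4, 18.7 and 22.3 against 23.8, 12.6 and 16.2 CPM (0.05). A difference in the channel genes between crown-marked and other LRO cells was not detectable at 24 to 68 UMIs per set and gene.

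**Figure D5:**
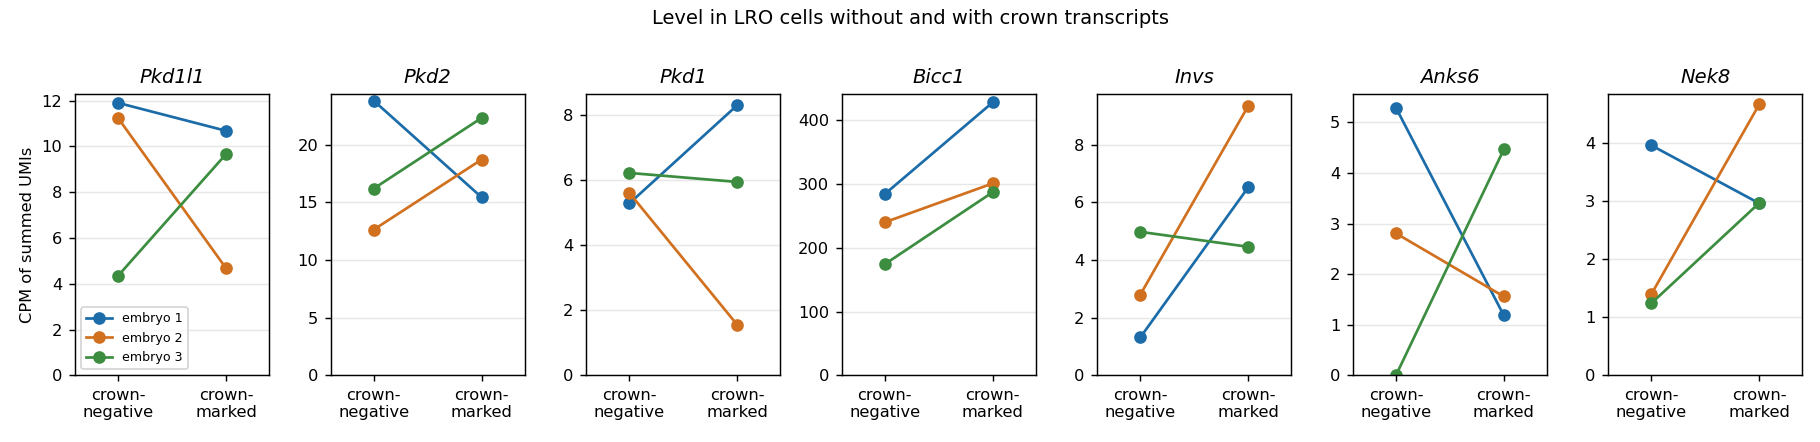
CPM of summed UMIs (y axis, from 0) of each gene in crown-negative and crown-marked LRO cells (x axis), with a line joining the values of each embryo. Bicc1 is higher in crown-marked cells in all 3 embryos, whereas the lines of Pkd1l1 and Pkd2 run in different directions.

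Finally, the genes whose level across the 44 class sums was most like that of each member were listed, by Pearson correlation of log2(CPM + 1) among 9373 genes that averaged at least 5 CPM and were no class markers. The sums share libraries, so these values are descriptive. For Pkd1l1 they were Vtn (0.963), Upk3a (0.933) and Erich2 (0.920), and for Bicc1 Upk3a (0.846), Ndufa4 (0.841) and Gsn (0.834). Pkd1l1 and Bicc1 themselves correlated at 0.799, and Pkd1l1 and Pkd2 at 0.435. For Pkd2 the closest was Cux1 (0.863), for Pkd1 Pard3 (0.854), for Invs Trim8 (0.754), for Anks6 Etv1 (0.777) and for Nek8 Psme1 (0.769). The Anks6 and Pkd1l1 patterns had mean levels of 0.838 and 1.01 CPM, and most of the sums in them held few or no UMIs.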

How the data were processed

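Cells of 3 mouse embryos, each its own library, were profiled by droplet 3' sequencing. Per the labels and methods, the authors processed the reads with Cell Ranger 3.1.0 against mm10 with EGFP added, and deposited raw UMI counts per feature and barcode, whole numbers without normalization; strand handling is not given in the sources used here. The feature and barcode columns hold names only, and 30934 of 31054 features matched GENCODE vM21 (GRCm38), the source of the coordinates.

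Cells with 1500 to 8500 genes (7500 in embryo 2) and at most 10% mitochondrial UMIs were kept. No clustering was run, no cluster was removed and no doublet caller was used. Classes were set by the number of markers with a UMI: LRO first (4 of 6), then the axial list (3 of 5, at most 1 LRO marker), then 13 further lists, each needing 3 to 5 of 3 to 6 markers: definitive and extraembryonic endoderm, cardiac, presomitic and paraxial mesoderm, anterior neural plate, neuromesodermal progenitors, surface ectoderm, endothelium, erythroid cells, allantois, extraembryonic mesenchyme and primordial germ cells. Cells meeting several of these lists were left out of every lineage but kept among all other cells. For LRO and axial-list cells such cells were kept, and left out as an alternative. Sums of under 10 cells were dropped. No sequence is shown, because the data bear on no sequence feature of the genes.

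UMIs were summed per embryo and class and tested with edgeR 4.0.16 in R 4.3.3 (glmQLFit and glmQLFTest, TMM, filterByExpr, Benjamini-Hochberg over all genes tested, adjusted p of 0.05), after a test on simulated data. Both sums of a comparison come from the same animal, so the embryo pairs them, and deviations of paired sums correlated at 0.141 to 0.325 across genes. A fit with the embryo as a block was run as an alternative. The others were DESeq2 1.42.0, RLE size factors, no count filter, each embryo left out, thinning to 5000 UMIs, a mitochondrial minimum of 0.5%, other marker limits, LRO cells with a single list, and other lineages weighted equally. The axial limit of 4 markers and the removal of cells with a second list from both sides, or within the crown split, were added after seeing the data.

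The 7 genes and the partner lists were chosen with earlier results of these data known. All 7 are named, with the called genes of 5 fixed lists (inversin partners, other polycystins, CCR4-NOT deadenylase, inositol trisphosphate receptors, flow target and crown genes) and the 3 genes most correlated with each member on log2(CPM + 1), of which the text gives the highest. Part of the inversin partner list is not reported here. Depth was 149341900 to 207961733 UMIs per library, and intervals and limits (3 counts) cover counting error only.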

Additional observations from a re-analysis of the deposited data

Results flagged for a closer look

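EGFP was counted although all 3 embryos are labelled wild type, and the comparisons do not use this feature. Embryo 1 had 31 EGFP UMIs in 21 barcodes and embryo 3 had 32 UMIs in 22 barcodes, whereas embryo 2 had 0 UMIs in 8621 barcodes. Of the 41 cells with EGFP that passed quality control in embryos 1 and 3, 37 were LRO cells. The genotype behind this was not tested. Bicc1 and Pkd1l1 were higher in LRO cells than in all other cells in embryo 2 as well as in embryos 1 and 3.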

How the results depend on the processing

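Of 314 alternative log2 fold changes of the members, 274 kept their direction and side of the threshold, 5 lost a call (4 of Anks6 against all other cells, 1 of Pkd1 against extraembryonic endoderm), 9 gained one and 26 changed sign, none of the last past the threshold. Bicc1 was called in the 4 LRO comparisons under every alternative in which it was tested, and the cause of the changes below was not tested unless fewer genes or samples entered.

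Genes called against all other cells were 4805 with the embryo as a replicate block, 5305 with lineages weighted equally and 1204 to 2104 without 1 embryo (lowest without embryo 2). Against axial-list cells they were 2337 with the block, 693 thinned, 2567 with single-list LRO cells, 868 with both single-list, 944 at 4 axial markers and 787 to 1500 without 1 embryo. Against definitive endoderm they were 1585 thinned and 2059 to 2660 without 1 embryo, and against extraembryonic endoderm 4584 thinned. In the crown split they were 64 without the filter, 84 with the block, 32 thinned, 8 at 1 UMI, 29 with single-list cells, and 8, 8 and 29 without embryos 1, 2 and 3.

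Members called were 2 against axial-list cells without the filter, with the block or with single-list LRO cells (Bicc1 and Pkd1l1). In the filtered fits Pkd1l1 entered through LRO cells. Thinned, they were 1 against definitive endoderm and 2 against extraembryonic endoderm, with fewer members tested, and in the crown split 1 with the block or thinned (Bicc1). The block gained Pkd2 against all other cells, Pkd1l1 against axial-list cells and Bicc1 in the crown split, and changed no other call of a member. Pkd2 also passed with lineages weighted equally (0.50), and Invs passed against all other cells thinned (1.47) and against extraembryonic endoderm with single-list LRO cells (1.41).

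As a mean over cells of CPM per cell, LRO levels were 15.7 for Pkd1l1, 456 for Bicc1, 6.18 for Invs, 3.29 for Anks6 and 2.37 for Nek8. Thinned to 5000 UMIs, the mean share of LRO cells with a UMI was 6.32% for Pkd1l1, 8.76% for Pkd2, 2.53% for Pkd1, 66.2% for Bicc1, 5.84% for Invs and 2.53% for Nek8.

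Signs changed only in values short of the threshold. Against all other cells, Nek8 was 0.00072 with RLE, 0.89 thinned, 0.093 at 3 LRO markers and -0.12 to 0.096 without 1 embryo, and Pkd1 was 0.076 with single-list LRO cells and -0.31 to 0.0032 without 1 embryo. Against axial-list cells, Invs was 0.026 at 5 LRO markers, 0.79 with single-list LRO cells and -0.38 to 0.13 without 1 embryo, Pkd2 was -0.0072 at 3 LRO markers, -0.21 at 4 axial markers and -0.23 to 0.23 without 1 embryo, and Pkd1 was 0.025 with single-list LRO cells. Against definitive endoderm, Invs was -0.16 to 0.46 and Pkd1 -0.060 to 0.28 without 1 embryo, and Pkd2 was 0.025 with single-list LRO cells. Against extraembryonic endoderm, Nek8 was -0.043 without the filter and -0.097 to 0.29 without 1 embryo. In the crown split, Pkd2 was -0.19 to 0.45 without 1 embryo, -0.055 at 1 UMI and -0.041 at 5 UMIs, and Pkd1l1 was -0.033 with DESeq2.

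With 5 to 20 UMIs per embryo for Pkd1, Invs and Nek8 in LRO cells and 3 to 8 for Anks6, modest differences in these genes could not be seen at this depth.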
